A study of Homo sapiens with 4 samples.

Results

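Near-start intron peaks were the H3K27ac peaks that the deposited annotation placed in an intron, with a midpoint 20 kb or less from the start of the gene assigned to them. H3K27ac is acetylation of lysine 27 of histone H3, and a peak is a stretch of the genome where the immunoprecipitate (IP) held more sequenced fragments, called tags, than its local background. They numbered 1577 of the 15789 peaks of the H3K27ac list (9.99%, 95% Clopper-Pearson interval 9.52 to 10.5) and belonged to 1210 genes. The class and the distance alone chose them, and no signal value entered the choice.

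The data came from chromatin immunoprecipitation sequencing of HCT116, an established human colorectal carcinoma cell line, fixed with formalin and given no treatment. There were 4 libraries, an H3K27ac IP with its input and an HSF1 IP with its input, HSF1 being the transcription factor of the heat shock response. Each group held 1 library of the same untreated line, so the values carry no replicate error. Every test compares peaks of the H3K27ac library, not conditions, and covers counting error only.

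H3K27ac is laid down by the acetyltransferases CBP and P300 on the nucleosomes that flank active promoters and active enhancers. Enhancers are short stretches of DNA that bind transcription factors and raise transcription from a promoter at a distance, and many of them lie in the introns near the start of a gene. Clusters of neighbouring enhancers with dense acetylation are often called super enhancers. The gene assigned to a peak is an annotation by position and was not measured as its target.

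The start regions of 4 of these genes are printed first, to show starts with many and with few CG dinucleotides at genes with strong intronic peaks. Each line gives the 250 bases before the start from RefSeq (GRCh38.p14), 5′ to 3′ on the strand of the gene, with each CG dinucleotide in capitals. XPA (a DNA damage recognition protein of nucleotide excision repair) and TKT (transketolase of the pentose phosphate pathway) had no H3K27ac promoter peak. EMP1 (an epithelial membrane protein) and MYOF (myoferlin, a membrane repair protein) had one. Each of the 4 has 1 start region in the table. Positions were not converted between builds, so a printed start may differ from the one to which a peak's distance refers.
XPA: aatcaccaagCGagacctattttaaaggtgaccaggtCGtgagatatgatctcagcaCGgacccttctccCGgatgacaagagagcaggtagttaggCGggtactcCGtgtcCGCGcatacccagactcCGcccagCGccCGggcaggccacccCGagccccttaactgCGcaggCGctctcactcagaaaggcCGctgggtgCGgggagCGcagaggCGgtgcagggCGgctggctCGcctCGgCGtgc
TKT: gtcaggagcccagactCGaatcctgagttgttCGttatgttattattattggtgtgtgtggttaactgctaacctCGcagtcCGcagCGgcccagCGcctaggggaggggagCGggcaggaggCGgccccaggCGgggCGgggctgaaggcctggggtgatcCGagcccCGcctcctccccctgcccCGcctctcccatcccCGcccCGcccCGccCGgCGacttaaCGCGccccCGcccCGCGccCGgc
EMP1: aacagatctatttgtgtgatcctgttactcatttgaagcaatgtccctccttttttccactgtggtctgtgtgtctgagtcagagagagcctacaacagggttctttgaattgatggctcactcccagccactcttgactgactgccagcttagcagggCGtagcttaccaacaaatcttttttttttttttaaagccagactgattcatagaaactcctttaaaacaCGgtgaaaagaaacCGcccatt
MYOF: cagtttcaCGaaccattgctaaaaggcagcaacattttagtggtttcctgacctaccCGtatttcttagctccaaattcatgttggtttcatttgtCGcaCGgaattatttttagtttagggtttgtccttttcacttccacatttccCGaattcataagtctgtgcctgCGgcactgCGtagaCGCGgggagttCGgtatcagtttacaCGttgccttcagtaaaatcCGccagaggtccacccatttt

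XPA, at chr9:97697341-97697590 on the minus strand, held 22 of them and TKT, at chr3:53256023-53256272 on the minus strand, held 24. EMP1, at chr12:13196476-13196725 on the plus strand, held 3. MYOF, at chr10:93482335-93482584 on the minus strand, held 12. Here XPA and TKT counted as CpG-rich, meaning a GC content of at least 50% and a ratio of observed to expected CG of at least 0.6, and EMP1 and MYOF did not.

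Among protein-coding genes outside chromosome 8, which the sequence table lacks, 824 of 956 genes with a near-start intron peak had a start region in the table. Of these, 69.7% (95% interval 66.4 to 72.8) were CpG-rich, against 61.2% of 15488 protein-coding genes with a start region. The share was 74.8% (67.5 to 81.3) among the 163 that also had a promoter peak and 68.4% (64.7 to 71.9) among the 661 without one. The printed start regions ran the other way, CpG-rich at the genes without a promoter peak, and are examples only. Genes with a deep intron peak, over 20 kb from the start, had 71.8%, those with an upstream peak 67.9% and those with a promoter peak 77.8%. These shares are descriptions without a test, the groups share genes, and the choice to compute them was made after the data were seen. The letters of a heat shock element unit, GAANNTTC or TTCNNGAA, read on both strands by their symmetry, were in 8.86% of the start regions of genes with a near-start intron peak and in 9.86% of all. Those of an AP-1 site, TGACTCA or its reverse complement TGAGTCA, were in 4.0% and 3.16%. The MYOF window held a match to the first motif and the EMP1 window a match to the second. A match is a run of letters and not a measured site.

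Within the range of distances that the classes and the 20 kb limit set, the near-start intron peaks thinned out into the gene. The deposited promoter class covered midpoints within 2 kb of a start, and the near-start intron peaks lay from 2.01 to 19.9 kb, with a median of 7.65 kb (quartiles 4.16 and 13.4). Between 2 and 3 kb there were 221 peaks per kb, between 5 and 10 kb 90.4, and between 15 and 20 kb 57.4. Upstream peaks, before the start of a gene and within the same 20 kb, fell from 312 to 175 and 119 per kb over the same bins. Intron length was not taken into account in these densities. The median transcript behind a near-start intron peak was 57910 bp long by the deposited coordinates, and the peak lay at a median of 13.2% of its length.

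**Figure D1:**
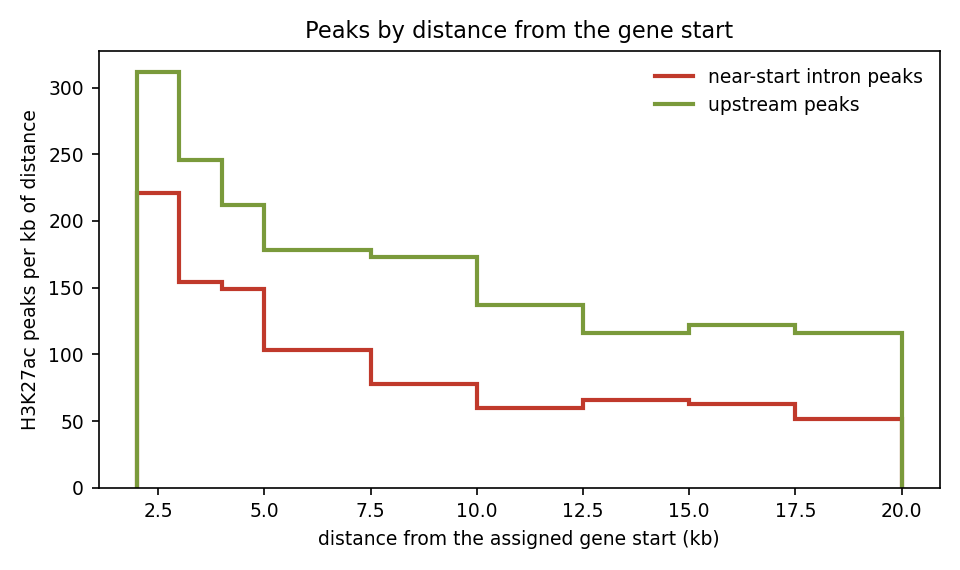
H3K27ac peaks per kb of distance (vertical axis) by distance of the midpoint from the assigned gene start in kb (horizontal axis), for near-start intron peaks (red) and upstream peaks (green). The red line falls from 221 to 51.6 peaks per kb, and the green line from 312 to 116.

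Of the 1577 peaks, 1567 lay wholly inside the assigned transcript. For 166 of them (10.5%) the near edge reached to within 2 kb of the start, and 1 peak covered it, at NOTCH2NLA. No start listed in either deposited list lay within 2 kb of any midpoint, which follows from the promoter class and only checks the annotation. In 315 cases the list gave more than 1 start for the peak and in 50 cases more than 1 gene, and the first was used. At the outer limit, the peaks just inside were at CD109 (19.9 kb, 77 tags, 5.00-fold) and OXR1 (19.9 kb, 19 tags, 7.18-fold). The peaks just outside were at PRKCH (17 tags, 7.86-fold) and PITPNM2 (51 tags, 5.88-fold), both 20 kb from the start after rounding.

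The near-start intron peaks were mostly small, and none of their differences from the other groups in fold, tags or width passed the test. Their fold enrichment, the ratio of IP over background given with each peak, ran from 3.43 to 14.6 with a median of 6.73 (quartiles 5.72 and 7.30). The tag count ran from 15 to 399 with a median of 24, and 545 peaks had at most 20 tags. Width ran from 608 to 13700 bp with a median of 1186. A fold of 10 or more was reached by 35 peaks. Across the 1577 peaks, which share a library, distance from the start was nearly unrelated to fold (Spearman's rho = 0.03), tags (0.01) and width (-0.01). Width and tags rose together (rho = 0.96). Tags and fold did not (rho = 0.05).

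To compare groups, the share of peaks above the common median was tested by a two-sided Fisher's exact test, with Benjamini-Hochberg adjustment over 20 tests, of which 8 passed 0.05. The fold share was 39.9% in near-start intron peaks, 40.7% in deep intron peaks (adjusted exact p = 0.693), 38.7% in upstream peaks (0.505) and 42.6% in promoter peaks (0.199). It lies under 50% because many peaks share the median value. The odds ratios had 95% intervals of 0.859 to 1.10, 0.929 to 1.2 and 0.789 to 1.02. For tags the odds ratios were 0.917 (0.813 to 1.03), 0.920 (0.812 to 1.04) and 0.899 (0.792 to 1.02), with adjusted exact p from 0.199 to 0.313. For width they were 0.939 (0.833 to 1.06), 0.923 (0.815 to 1.05) and 0.954 (0.840 to 1.08), with adjusted exact p from 0.313 to 0.546. None of these 9 differences passed the threshold.

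**Figure D2:**
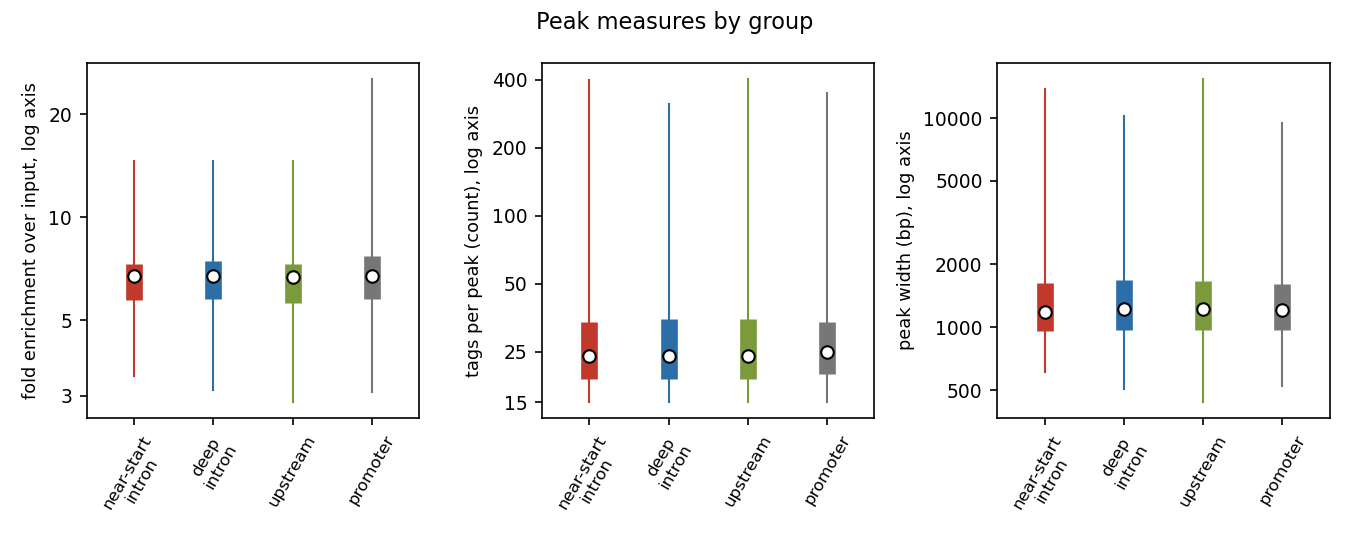
Fold enrichment over input, tags per peak and width in bp (vertical axes, all log scales) for near-start intron, deep intron, upstream and promoter peaks. White points are medians, thick bars the quartiles and thin lines the full range. The medians of fold are 6.73, 6.73, 6.69 and 6.73, and those of tags 24, 24, 24 and 25.

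The highest fold was at TMEM217, where the peak at chr6:37208647-37210282 (hg19) lay 15.9 kb from the start and held 49 tags at 14.6-fold. XPA followed with 33 tags at 12.9-fold, 3.26 kb from its start at chr9:100455817-100457045. The XPA peak stood alone, with the nearest other peak 57986 bp away. EXD3 (28 tags) and the long noncoding RNA gene HCG20 (39 tags) each reached 12.3-fold. DLEU2, a noncoding host gene of microRNAs, reached 12.1-fold with 35 tags at 3.12 kb, and its nearest other peak was 74757 bp away.

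The next peaks by fold began with MYOF, which had 51 tags at 11.6-fold, 7.75 kb from its start. TKT had 49 tags at 11.2-fold and SLC35A1, which carries CMP-sialic acid into the Golgi, 44 tags at 11.2-fold, at 16.6 and 12.4 kb. SYBU, a linker of vesicles to kinesin, had 109 tags at 11-fold. EMP1 had 73 tags, WWC1 (a regulator upstream of YAP) 34, CTNND1 (delta catenin, which binds cadherins) 34, CAV3 (the muscle caveolin) 32 and C6orf132 49, all at 10.7-fold. The remaining peak of the 15 with the highest fold was at SYT15-AS1, with 256 tags at 10.8-fold over 9759 bp. Of these 15 peaks, those at HCG20, MYOF, SYBU, EMP1 and CAV3 lay at genes with a promoter peak.

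By width and by tags the same 5 peaks led. ACSL5, which activates long fatty acids, had 399 tags over 13700 bp at chr10:114144123-114157822, at 8.04-fold. NOTCH2NLA had 370 tags over 9646 bp, LOC101929950 361 over 11273 bp, SYT15-AS1 256 over 9759 bp and CUEDC1 206 over 7721 bp. NOTCH2NLA, LOC101929950 and SYT15-AS1 lie in duplicated parts of the genome, where short reads cannot always be placed, so their values are uncertain. The false discovery rate that MACS attached to the peaks increased with the score (rho = 1.00) and was 100% for ACSL5, NOTCH2NLA, SYT15-AS1 and CUEDC1. Over all near-start intron peaks it ran from 8.99 to 100%, with none at 5% or less. All 26 at 100% had a score of at least 230.0, and the 280 at 10% or less had a score of at most 53.8. MACS derives this rate from calls with IP and input exchanged, and whether they were swapped in that step could not be settled from the files, so its values are not read as a measure of reliability.

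Most genes had a single near-start intron peak. Of the 1210 genes, 959 (79.3%, 95% interval 76.9 to 81.5) had 1, 178 had 2, 46 had 3 and 27 had 4 or more. By RefSeq annotation, 1016 genes were protein-coding, 155 were long noncoding RNA genes and 35 were transcribed pseudogenes, while 4 were not matched. The most peaks, 8, were assigned to the pseudogene LOC101929583, but they were spread over 3 near-identical copies on chromosome 9 and are uncertain for that reason. CUEDC1, SYBU and the long noncoding RNA gene MANCR had 6 each, and at CUEDC1 and SYBU they referred to more than 1 start. STN1 (a telomere maintenance protein), CASC21 and HCG20 (noncoding RNA genes), ANXA3 (an annexin), GLG1 (a Golgi glycoprotein) and ATF1 (a transcription factor of the CREB family) had 5 each.

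**Figure D3:**
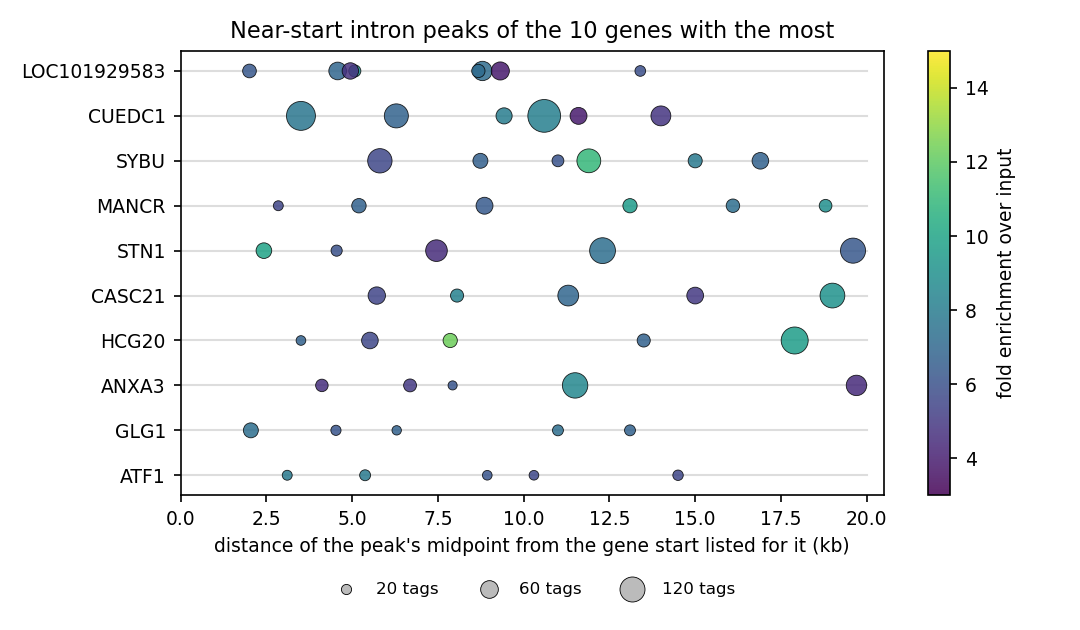
Near-start intron peaks of the 10 genes with the most of them, each point a peak, placed by the distance of its midpoint from the gene start listed for it in kb (horizontal axis). Point area gives the tag count and colour the fold enrichment over input. The row of CUEDC1 holds the largest points, up to 206 tags, and all 5 points of ATF1 hold 23 tags or fewer.

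The series of peaks within a gene were uneven. At HCG20 the 5 peaks held 18, 53, 39, 33 and 140 tags from the start inwards, at 3.51, 5.52, 7.86, 13.5 and 17.9 kb, with folds of 6.73, 5.61, 12.3, 6.73 and 9.61. Fold was highest in the middle of the series and tags at its far end. At ANXA3 the tags were 30, 32, 16, 124 and 80, with the highest fold, 8.55, at the peak 11.5 kb from the start. At STN1 they were 47, 24, 90, 128 and 121, and the highest fold, 9.94, was at the peak nearest to the start. At ATF1 they were 19, 23, 18, 18 and 21, with folds from 5.55 to 7.86, close to the lowest count in the list. These peaks are neighbours in 1 library and do not count as repeats of one another.

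ANXA11, an annexin gene that the study followed up, had near-start intron peaks close to and above the median of 24 tags, with folds under the median of 6.73. One lay at chr10:81958542-81959519 (hg19), 5.22 kb from the start, with 23 tags at 6.59-fold. The other lay at chr10:81956304-81957912, 7.14 kb from the start, with 32 tags at 5.96-fold. They were 630 bp apart, and no promoter, upstream or deep intron peak was assigned to the gene. Neither overlapped an HSF1 peak.

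Counted by peak, near-start intron peaks had neighbours less often than deep intron or upstream peaks, and more often than promoter peaks. Only the difference from upstream peaks kept its direction with each cluster counted a single time. Another H3K27ac peak lay within 10 kb of 783 of the 1577 (49.7%, 95% interval 47.2 to 52.1), against 56.2% of 3695 deep intron peaks, 58.5% of 2876 upstream peaks and 42.8% of 2643 promoter peaks. Over all 15789 H3K27ac peaks the share was 51.7%, within the interval of the near-start intron peaks. The odds ratios were 0.767 (0.681 to 0.865), 0.700 (0.618 to 0.794) and 1.32 (1.16 to 1.5), with adjusted exact p of 3.95e-05, 2.39e-07 and 3.95e-05 by Fisher's exact test. With each cluster counted a single time, and clusters that held peaks of both groups left out, the odds ratio was 0.643 against upstream peaks (adjusted exact p = 1.83e-07) but 1.15 (0.0884) against deep intron peaks and 0.840 (0.0723) against promoter peaks. With peaks of a score of 100 or more, the differences from deep intron peaks (0.769, adjusted exact p = 0.317) and from upstream peaks (0.803, 0.458) did not pass.

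A like order was seen for dense clusters, which rest on the same distance of 10 kb and are not a separate finding. Peaks within 10 kb of each other were joined and the 10295 joined regions ranked by summed width times fold, and 279 of them lay above the tangent point of the scaled curve, the rule commonly used for super enhancers. They are called high-ranked regions here. In them lay 166 near-start intron peaks (10.5%, 95% interval 9.05 to 12.1), against 15.4% of deep intron peaks (odds ratio 0.648, adjusted exact p = 1.06e-05), 15.4% of upstream peaks (0.644, 1.60e-05) and 5.75% of promoter peaks (1.93, 2.39e-07), by Fisher's exact test. The share over all H3K27ac peaks was 13.5%. All peaks of a region share its rank, so they are not independent and these p-values are too small. No count with each region taken a single time was made for this measure. With a score of 100 or more, the shares were 20%, 20.9%, 19.1% and 7.80%, and only the difference from promoter peaks passed (adjusted exact p = 6.09e-05). With a distance limit of 10 kb the difference from upstream peaks was 10.3% against 12.6% and did not pass (adjusted exact p = 0.226).

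The 166 peaks lay in 72 high-ranked regions and were assigned to 75 genes. The highest ranked of these, at rank 4, spanned 117 kb on chromosome 8 at the noncoding RNA genes CASC19 and CASC21 and held 6 near-start intron peaks among 23. The region at MTHFD1L, a mitochondrial enzyme of folate metabolism, held 4 among 24, at rank 9. The region at SMURF2, a ubiquitin ligase that acts on TGF-beta signalling, held 2 among 22, at rank 6. HCT116 cells are known to carry extra copies of parts of chromosomes 8, 10, 16 and 17. The 387 near-start intron peaks there had a median of 32 tags, against 22 for the other 1190, and a median fold of 6.17 against 6.73. Of the former 22% lay in high-ranked regions and of the latter 6.81%. The part of copy number in these values was not tested. With those chromosomes left out and the regions ranked anew, the share in high-ranked regions was 9.92% against 19.3% of deep intron, 19.2% of upstream and 7.46% of promoter peaks (adjusted exact p = 6.44e-13, 5.62e-12 and 0.0499).

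Most near-start intron peaks lay at genes without a promoter peak in this list, as did most deep intron and upstream peaks. The gene of a near-start intron peak had one for 361 of 1577 (22.9%, 95% interval 20.8 to 25), against 27.1% of deep intron peaks (odds ratio 0.799, adjusted exact p = 0.00348) and 30.1% of upstream peaks (0.689, adjusted exact p = 1.38e-06), by Fisher's exact test. Over all 15789 H3K27ac peaks the share was 36.8%, which counts the promoter peaks themselves. Among protein-coding genes outside chromosome 8, a promoter peak was called at 188 of 956 with a near-start intron peak and at 1851 of all 18705. These gene counts were not tested. With each gene counted a single time and genes of both groups left out, the shares were 18.1% and 18.2% against deep intron genes (odds ratio 0.993, adjusted exact p = 1.00) and 14.8% and 23.4% against upstream genes (0.570, 2.38e-07). The difference from deep intron peaks therefore rested on genes with several peaks or with peaks of both kinds. It also did not pass with a distance limit of 10 kb (0.856, adjusted exact p = 0.178) or without chromosomes 8, 10, 16 and 17 (0.839, 0.0918), and with a score of 100 or more it turned to 1.69 (0.203). The difference from upstream peaks did not pass with a score of 100 or more (0.720, 0.458). The share changed little with distance, from 22.7% at 2 to 5 kb to 24.3% at 5 to 10 kb, 22.3% at 10 to 15 kb and 21.6% at 15 to 20 kb.

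**Figure D4:**
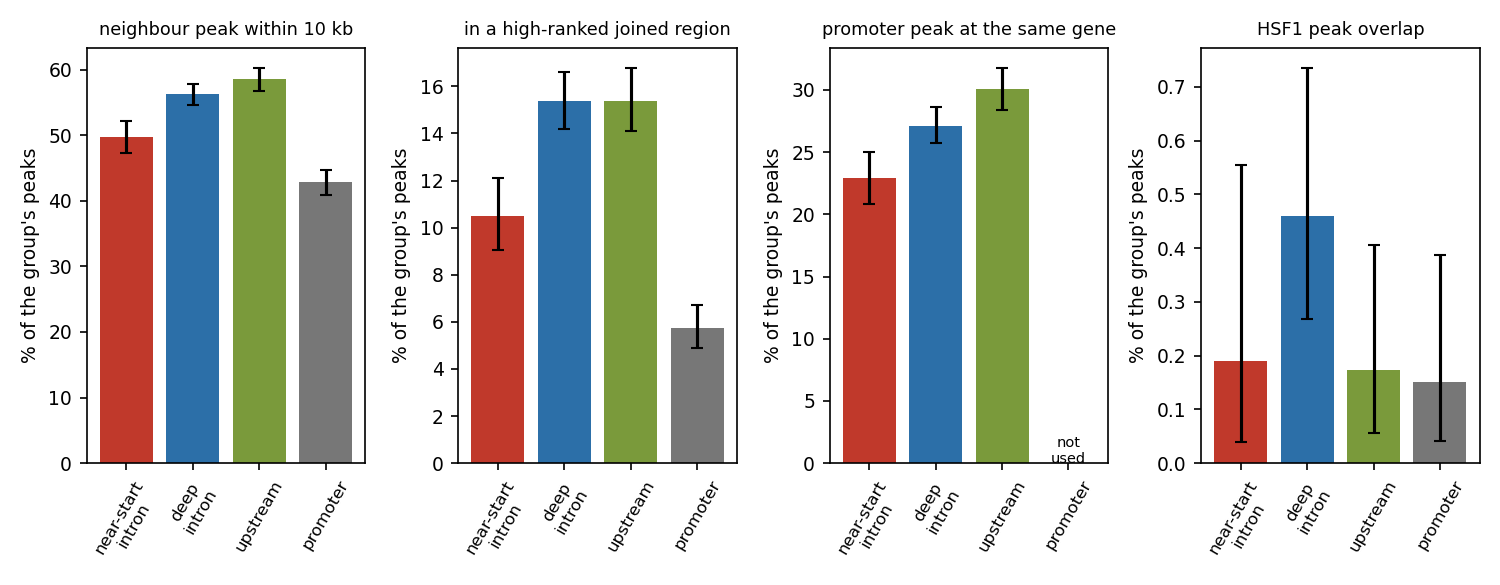
Percent of the peaks of each group (vertical axes, each with its own scale) that had another peak within 10 kb, lay in a high-ranked joined region, had a promoter peak at the same gene, or overlapped an HSF1 peak. Error bars are 95% Clopper-Pearson intervals. Near-start intron peaks (red) stand at 49.7, 10.5, 22.9 and 0.190%, and the third panel leaves out promoter peaks, for which it holds by definition.

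By gene, 598 of the 1210 (49.4%, 95% interval 46.6 to 52.3) had neither a promoter, an upstream nor a deep intron peak, so that a near-start intron peak was their only sign of H3K27ac among these classes. The like share was not computed for genes of the other classes, so it is not read as a trait of these genes. Genes with a near-start intron peak alone among these classes included XPA, DLEU2, EXD3 and ANXA11. A promoter peak was called at 237 genes (19.6%), an upstream peak at 277 and a deep intron peak at 341, and 39 genes had all 3. A missing promoter peak means that none was called at this depth, and the promoter may still carry the mark. In the 237 genes with a promoter peak, the strongest near-start intron peak had the higher fold in 111 and more tags in 121. At EMP1 the intronic peak had 73 tags at 10.7-fold and the promoter peak 19 at 7.30-fold, and at MYOF the highest values were 60 tags and 11.6-fold against 21 and 7.30. PLEC went the other way in fold, with 8.98 in the intron against 11.1 at the promoter, while it held 77 tags in the intron against 58. Where the gene had a promoter peak, the gap between the peaks had a median of 7176 bp (quartiles 2819 and 13094, 361 peaks).

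Among the gene lists, those of cell junctions, growth factor signalling and the cytoskeleton had the largest shares of genes with a near-start intron peak. The background was 4.04% of 29853 RefSeq genes, or 5.24% of 19392 protein-coding genes. Lists of related genes are given by their counts, with 95% intervals for counting error and with no test, since they were drawn up with earlier results of these data known. Gene length was not matched between lists and background.

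Junction and keratin genes had a near-start intron peak in 8 of 26 cases (30.8%, 95% interval 14.3 to 51.8). The fold was highest at CTNND1, followed by KRT8 (9.34-fold, 45 tags), a keratin of simple epithelia, and DSP (8.72-fold, 26 tags), the plaque protein of desmosomes. Others included DSG2 and JUP of the desmosome, OCLN of the tight junction and CDH17, the liver-intestine cadherin. Among the 8, KRT8 and CDH17 also had a promoter peak, beside 19.6% of all 1210 genes with a near-start intron peak. Of the hemidesmosome, integrin and laminin genes 7 of 27 (25.9%, 11.1 to 46.3) had one. ITGA6, an integrin of hemidesmosomes, had 3 peaks with 17, 45 and 19 tags from the start inwards. PLEC, the plectin gene, had 1 with 77 tags at 8.98-fold. COL17A1, a collagen of hemidesmosomes, had 3 with up to 77 tags and 8.34-fold, and ITGB1 had 1 at 7.30-fold.

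**Figure D5:**
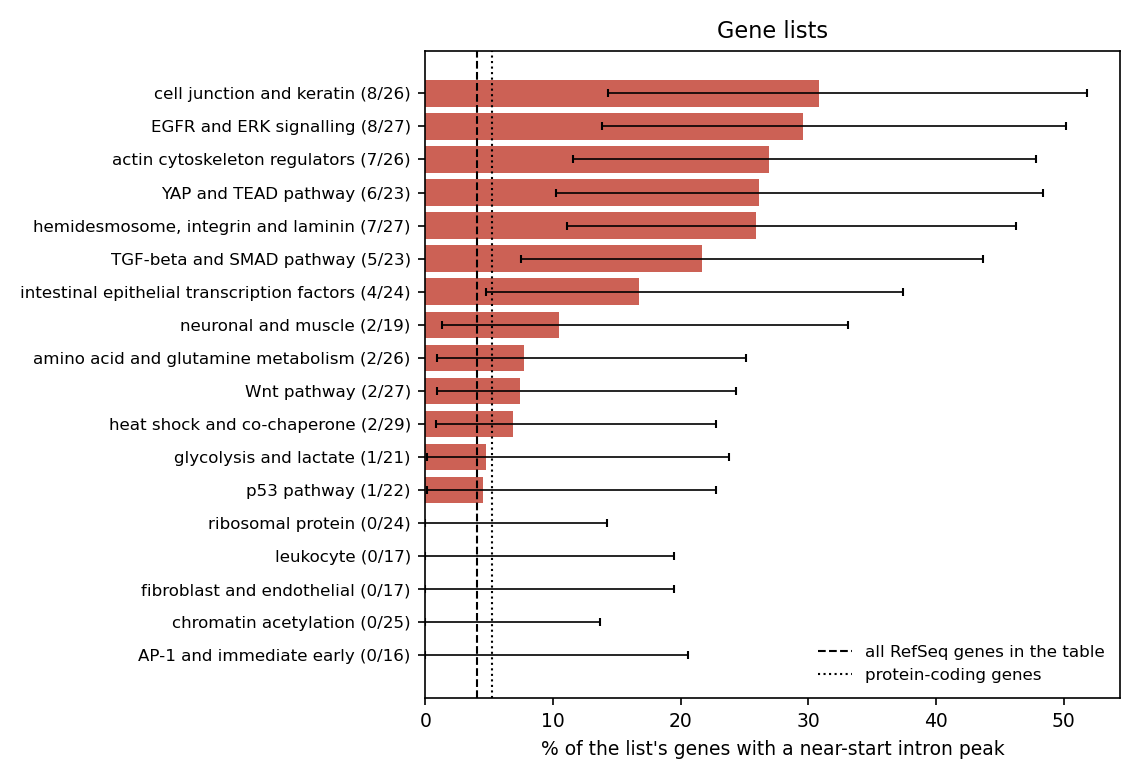
Percent of the genes of each list with a near-start intron peak (horizontal axis), with the number of genes in brackets and 95% Clopper-Pearson intervals. The dashed line is the share of all RefSeq genes, 4.04%, and the dotted line that of protein-coding genes, 5.24%. The longest bars are those of junction and keratin genes (30.8%) and of EGFR and ERK signalling (29.6%), and 5 lists are at 0.

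In the EGFR and ERK list 8 of 27 genes (29.6%, 13.8 to 50.2) had such a peak. MET, the receptor of hepatocyte growth factor, had 3 with 20, 38 and 31 tags at 6.17, 6.73 and 7.86-fold, at 5.72, 16.8 and 19.1 kb. TGFA, a ligand of EGFR, also had 3, with 22, 35 and 38 tags. EPHA2, an ephrin receptor, had 56 tags at 7.86-fold and ERBB2, a receptor of the EGFR family, 16 at 7.14-fold. DUSP5, a nuclear phosphatase of ERK, had 93 tags at 7.69-fold, 2.13 kb from its start, against 31 tags at 5.13-fold at the promoter. SPRED1, an inhibitor of the pathway, ETV5, a transcription factor downstream of it, and the adaptor GRB2 had 1 peak each, at 7.30, 7.30 and 3.85-fold. Genes of AP-1 and other immediate early factors had none in 16, which allows a share of up to 20.6%.

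YAP and TEAD pathway genes had a near-start intron peak in 6 of 23 cases (26.1%, 10.2 to 48.4). YAP1, the coactivator itself, had 31 tags at 9.54-fold, 3.61 kb from its start and 870 bp from the promoter peak. NF2, which restrains YAP, had 30 and 42 tags at 6.59 and 9.54-fold. AMOTL1 (8.98-fold), STK3 (7.14-fold), a Hippo kinase, and TEAD1 (6.17-fold), a DNA-binding partner of YAP, had 1 each, and WWC1 is given above. Of the regulators of the actin cytoskeleton 7 of 26 (26.9%, 11.6 to 47.8) had one. RDX, which links actin to the membrane, had 33 tags at 7.86-fold. MYH9, a nonmuscle myosin, had 21 and 23 tags at 7.69 and 7.28-fold, and ACTN4, an actin crosslinker, had 39 tags at 7.30-fold.

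In the TGF-beta and SMAD list 5 of 23 genes (21.7%, 7.46 to 43.7) had one. None of the 5 had a promoter peak, beside 19.6% of all 1210 genes with a near-start intron peak, and so few genes cannot show a lower share. Upstream peaks were assigned to TGFBR2 (6), SMURF2 (5) and SMAD6 (2), and none to SMURF1 or BMPR1A. TGFBR2, a receptor of TGF-beta, had 27 tags at 9.54-fold 2.82 kb from its start and 49 at 7.86-fold 18.1 kb from it. BMPR1A, a BMP receptor, had 30 tags at 8.98-fold. The ubiquitin ligase genes SMURF1 (7.86-fold) and SMURF2 (4.47-fold) and the inhibitor SMAD6 (5.62-fold) also had one.

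Intestinal epithelial transcription factors had a near-start intron peak in 4 of 24 cases (16.7%, 4.74 to 37.4). TCF7L2, the transcription factor at the end of the Wnt pathway, had 4 peaks with 61, 33, 158 and 63 tags from the start inwards. The largest spanned 5500 bp, at 6.41-fold. EHF, HNF4G and GRHL2 had folds of 4.33, 5.43 and 5.38, all under the median of the near-start intron peaks. The Wnt list had 2 of 27, TCF7L2 and RNF43, a ubiquitin ligase that removes Wnt receptors, whose 4 peaks held 104, 49, 89 and 129 tags from the start inwards.

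Metabolic, stress and housekeeping lists were close to the background or without a near-start intron peak. Amino acid and glutamine genes had 2 of 26 (7.69%), among them MTHFD1L with 4 peaks of up to 79 tags and 9.54-fold. Heat shock and co-chaperone genes had 2 of 29 (6.90%), DNAJB4 with 27 tags at 8.42-fold and BAG3 with 53 and 35 tags at 7.36 and 4.27-fold. The glycolysis list had 1 of 21, the glucose transporter gene SLC2A1 with 43 tags at 7.69-fold, and the p53 list 1 of 22, PMAIP1, which promotes apoptosis, with 30 tags at 7.30-fold. Chromatin acetylation genes had 0 of 25 and ribosomal protein genes 0 of 24, which allow shares of up to 13.7% and 14.2%.

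Markers of colonic epithelium and of other lineages are given by their counts. Of 18 markers of colonic epithelium, 9 had an H3K27ac peak of any class, and KRT8, CDH17 and EHF had a near-start intron peak. None of any class was assigned to EPCAM, CDX1, CDX2, VIL1, LGALS4, TFF3, GUCY2C, HNF4A or CEACAM5. Of 7 leukocyte markers 1 had a peak of any class (PTPRC), as did 2 of 9 markers of fibroblasts and endothelium (DCN and VWF), none of them a near-start intron peak. The whole H3K27ac list had 6783 genes, beside 29853 RefSeq genes. So few markers of other lineages cannot show a share under that of all genes. The longer leukocyte list and the fibroblast and endothelial list had 0 of 17 each. The neuronal and muscle list had 2 of 19, SYT1, a synaptic vesicle protein, with 4 peaks of up to 30 tags and 9.54-fold, and MYL2, a light chain of cardiac myosin, with 29 tags at 7.14-fold.

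HSF1 peaks rarely met H3K27ac peaks, near-start intron peaks included. At least 1 bp was shared at 3 of 1577 (0.190%, 95% interval 0.0392 to 0.555), and at 41 of all 15789 H3K27ac peaks (0.260%), a share within that interval. The share was 0.460% among deep intron peaks (adjusted exact p = 0.313), 0.174% among upstream peaks (1.00) and 0.151% among promoter peaks (0.755) by Fisher's exact test, none past the threshold. With so few overlaps the odds ratio against deep intron peaks could lie anywhere from 0.0773 to 1.43. The first of the 3 was at CD163L1, a scavenger receptor gene, where an H3K27ac peak of 32 tags at 5.75-fold shared 741 bp with an HSF1 peak of 15 tags at 4.87-fold. At DAB2, an endocytic adaptor, the H3K27ac peak had 18 tags at 6.17-fold and the HSF1 peak 17 at 3.99-fold, with 478 bp shared. At C12orf56 they shared 59 bp, with 30 tags at 7.30-fold and 14 at 3.99-fold. All 3 HSF1 peaks had low scores (10 times the negative log10 of the caller's p) at 31.3, 41.8 and 31.2, where the list begins at 30.0. By gene rather than position, 195 of the 1210 genes (16.1%, 14.1 to 18.3) had an HSF1 peak assigned to them somewhere, against 14.8% of the 6783 genes of the whole H3K27ac list and 13.4% of 29853 RefSeq genes. These gene sets overlap and were not tested.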

How the data were processed

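ChIP-seq was performed by the authors in untreated HCT116 cells, with 1 IP library and 1 input for H3K27ac and for HSF1. Positions refer to hg19, FastQC and Bowtie2 2.2.7 are named in the submitters' processing notes, and peaks of an IP against its input were called with MACS, as the methods state. The total depth of each library is not given in the sources used here. Tags in H3K27ac peaks numbered 485046, of which 48740 lay in near-start intron peaks.

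The deposited lists held 39350 rows for H3K27ac, a row per peak and transcript, and the first row of each peak was kept. The tag counts are raw whole numbers, as deposited. The fold enrichment was calculated by the authors as the ratio of the IP to the local background. The score is the authors' 10 times the negative log10 of the caller's p-value, at least 50.0 for H3K27ac, and the deposited false discovery rate is a percent. The class, gene and distance were also theirs. No peak had more than 1 class.

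Shares were compared with Fisher's exact test (two-sided), with Benjamini-Hochberg adjustment over 20 tests, and given with exact 95% Clopper-Pearson intervals, which cover counting error only. Peaks of a cluster are not independent, so that p-values are too small to the extent that they cluster. Fisher's exact test was tried on simulated independent counts, and the joining, the gaps, the tangent point and the adjustment on a few made-up values. Clustered peaks were not simulated, so these checks do not cover the dependence between peaks. Symbols were matched through a RefSeq table of GRCh38.p14, from which no positions of peaks were taken. Named genes were the 15 peaks of highest fold on chromosomes 1 to 22 and X, the 10 genes with the most near-start intron peaks, the 5 widest, the 5 with the most tags, those that overlap HSF1, up to 4 peaks per gene list by fold, ANXA11, and the peaks next to the distance limit. Other names were chosen after their values were seen, and some genes that the rule names are left out here. The members and lists were chosen with earlier results of these data known. Alternatives were a score of 100 or more, a distance limit of 10 kb, peaks of a single class, leaving out chromosomes 8, 10, 16 and 17, an HSF1 peak within 1 kb, ranking by tags, a neighbour limit of 5 kb and other gene backgrounds. Intronic sequence needs an hg19 genome and was not analysed here. Software was scipy 1.17.1, pandas 2.3.3, numpy 2.4.6 and matplotlib 3.10.9 under Python 3.11.15.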

Additional observations from a re-analysis of the deposited data

How the results depend on the processing

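Of 97 recomputed values, 71 kept their direction and side of the threshold (list counts, within 1.5 times), 8 kept only their direction and 18 turned. The alternative with peaks of a single class left out no peak, since none had more than 1 class. All its values were therefore bound to stay the same, are counted among the 71 and show nothing about stability. Of the 18 that turned, 14 were differences in fold, tags, width or HSF1 overlap that passed in neither analysis. Of these, with a score of 100 or more, fold turned to 1.05 against deep intron peaks, tags to 1.01, 1.11 and 1.27 and width to 1.01, 1.09 and 1.34 against deep intron, upstream and promoter peaks. With a limit of 10 kb, fold turned to 1.00 against deep intron peaks, width to 1.03, 1.04 and 1.04, and HSF1 overlap to 0.562 against upstream and 0.677 against promoter peaks, and without chromosomes 8, 10, 16 and 17 fold turned to 1.02 against deep intron peaks. For the differences that had passed, with a score of 100 or more, which left 255 near-start intron peaks, the odds ratio for a neighbour was 0.769 against deep intron and 0.803 against upstream peaks, that for high-ranked regions 0.948 and 1.06, and that for a promoter peak at the same gene 1.69 and 0.720, none past the threshold. HSF1 overlap gave no odds ratio there, with 0 overlaps in every group. With a distance limit of 10 kb, the odds ratio for a promoter peak at the same gene was 0.856 against deep intron peaks and that for high-ranked regions 0.803 against upstream peaks. Without chromosomes 8, 10, 16 and 17 the former was 0.839. In 2 alternatives chosen after seeing the data, it was 0.993 with each gene counted a single time, and the odds ratio for a neighbour was 1.15 against deep intron and 0.840 against promoter peaks with each joined region counted a single time. The latter leaves out regions with peaks of both groups, which by construction hold more than 1 peak. The cause of the other changes was not tested. Of 15 gene lists outside the lineage markers, 12 lay above the background, and 10 to 12 under the alternatives. No paired analysis was possible because each group held 1 library.

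The lowest count in a near-start intron peak was 15 tags and the total depth is unknown, so that weaker enrichment was not detectable. Distances and classes rest on the deposited annotation.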
